A study of Homo sapiens with 11 samples.

Results

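The genes described here encode the kinase P-TEFb, the 7SK ribonucleoprotein that holds it inactive, and a bromodomain protein of the BET family. The set was made of the genes with the symbols CDK9, CCNT1, CCNT2, HEXIM1, HEXIM2, LARP7, MEPCE, BRD3 and RN7SK in the table of raw counts, which gave 9 of 38557 annotated genes. The set was chosen by these symbols with the measured level of RN7SK known, which differed among the combination libraries, so the values of RN7SK are given for each library as a description and without a test. The other 8 genes passed the filter on low counts and were tested together with all 14683 genes that passed it.

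RNA sequencing had been done on MOLM-13, which is a line of human acute myeloid leukemia cells that carry a KMT2A rearrangement. Cells were kept for 72 h in the solvent DMSO (4 libraries), in MI-503 at 1 µM (4 libraries), or in MI-503 at 1 µM together with PR-957 at 100 nM (3 libraries, replicates 1, 2 and 4, called the combination here). MI-503 blocks Menin, a chromatin partner of KMT2A, and PR-957 blocks PSMB8, a catalytic subunit of the immunoproteasome. All libraries came from a single cell line, none of those analysed here had received PR-957 alone, and nothing in the labels says that replicates were separate cultures, so the p-values measure the spread between libraries, which may be technical.

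Totals ran from 18.9 to 41.2 M counted fragments per library. Levels are given in CPM, the count of a gene scaled to a common library size, here with TMM factors that correct library totals for differences in RNA composition. Myeloid markers were abundant in every library: SPI1 lay between 217 and 332 CPM, FLT3 between 174 and 333 CPM and MPO between 102 and 228 CPM, while CD34 did not exceed 0.298 CPM and KIT did not exceed 1.57 CPM. The 8 myeloid markers summed to 879 to 953 CPM in DMSO, 1060 to 1100 CPM in MI-503 and 936 to 1010 CPM in the combination. These sums hold opposite moves. FLT3 was at 309 to 333 CPM in DMSO, 228 to 233 CPM in MI-503 and 174 to 219 CPM in the combination. CSF3R went the other way, with 58.8 to 79.8, 153 to 179 and 149 to 178 CPM in the same order of groups. The 10 markers of other cell types summed to 55.6 to 68.7, 119 to 124 and 137 to 191 CPM, nearly all of it PECAM1, which had at least 46.5 CPM in every library. Of those 10 markers, MS4A1 was at 0 throughout, and CD3E, CD3D, HBB and EPCAM stayed at or below 0.0949 CPM. The part of these shifts in the results was not tested, and in such bulk RNA fewer cells of a type and less RNA per cell cannot be told apart.

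P-TEFb is the kinase that releases RNA polymerase II from its pause near the start of genes. It consists of the kinase CDK9 with cyclin T1 (CCNT1) or cyclin T2 (CCNT2). A large share of it is kept inactive by HEXIM1 or HEXIM2, which bind it only when they are themselves bound to the 7SK small nuclear RNA (gene RN7SK). LARP7 protects the 3′ end of that RNA and MEPCE caps its 5′ end. BET proteins such as BRD3 read acetylated histones. HEXIM1 itself is known to be induced by agents that free P-TEFb from 7SK, and KMT2A fusion proteins act through elongation complexes that contain P-TEFb.

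The ends of the 7SK RNA are shown because they are what its protein partners bind, and because RN7SK was the gene with the largest differences between libraries of the same treatment among the 9. The sequence was read from hg38, on the plus strand of chr6:52995620-52995951, a single exon of 332 bases. In the first stretch, bases 1 to 110 at chr6:52995620-52995729, capitals mark each GATC, the letters known from the HEXIM binding region, which occurred 3 times in the whole RNA (first bases 13, 42 and 64). In the second stretch, bases 293 to 332 at chr6:52995912-52995951, capitals mark the terminal run of 4 T, read as U in the RNA, which is the kind of end that LARP7 binds.
RN7SK, 5′ end: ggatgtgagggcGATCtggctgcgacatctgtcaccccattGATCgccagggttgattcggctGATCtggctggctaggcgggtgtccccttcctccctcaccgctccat
RN7SK, 3′ end: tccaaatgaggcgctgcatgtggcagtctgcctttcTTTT

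For the protein-coding genes, the promoters of HEXIM1 and CCNT1 are shown, the inhibitor and the cyclin that were called in opposite directions in both comparisons with DMSO. The 250 bases before the annotated start are given, taken from the RefSeq promoter table of GRCh38.p14, at chr17:45148225-45148474 on the plus strand for HEXIM1 and at chr12:48716708-48716957 on the minus strand for CCNT1. Capitals mark matches on either strand to the TATA box letters TATAAA, to the letters CCAAT of the CCAAT box, to the E-box CACGTG, to the letters CCGGAAG that ETS factors bind, to the heat shock letters GAANNTTC and to the antioxidant response letters TGACNNNGC.
HEXIM1, 250 bases before the start: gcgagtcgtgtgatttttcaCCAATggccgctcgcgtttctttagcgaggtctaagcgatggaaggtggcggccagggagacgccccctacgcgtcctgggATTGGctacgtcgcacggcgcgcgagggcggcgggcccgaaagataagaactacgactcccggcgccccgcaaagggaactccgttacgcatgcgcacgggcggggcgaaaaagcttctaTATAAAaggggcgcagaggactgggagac
CCNT1, 250 bases before the start: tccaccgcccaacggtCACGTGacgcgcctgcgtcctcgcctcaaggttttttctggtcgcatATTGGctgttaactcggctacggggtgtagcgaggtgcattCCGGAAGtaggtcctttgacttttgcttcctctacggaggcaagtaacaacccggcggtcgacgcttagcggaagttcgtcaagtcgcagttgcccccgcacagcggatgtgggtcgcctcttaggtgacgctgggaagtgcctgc

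In HEXIM1, TATAAA lay 29 to 24 bases before the start and CCAAT occurred 2 times. Of the 8 protein-coding genes, which had 13 windows of 300 bases (250 before and 50 after a start) in the table, only HEXIM1 held TATAAA, against 11.5% of all 35116 windows. CCAAT was found in CCNT1, CCNT2, HEXIM1, HEXIM2, LARP7 and MEPCE, against 34.6% of all windows. CACGTG was found in CCNT1 and MEPCE (7.26% of all windows) and CCGGAAG in CDK9 and CCNT1 (10.3%). TGACNNNGC was found in HEXIM2 and MEPCE (13.3%) and GAANNTTC in none of them (6.77%). These are matches of letters only. Some genes had several windows, while the percentages are shares of single windows, so counts of genes are not comparable with them.

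To place the 9 genes beside each other, CPM were divided by the length of the exons in kb. In DMSO, MEPCE was the highest with 34.4 ± 0.917 CPM per kb (SD, n = 4), followed by RN7SK with 28.9 ± 1.39 and CDK9 with 23.9 ± 0.987. LARP7 (17.5 ± 1.65), BRD3 (15.9 ± 0.704) and HEXIM1 (15.6 ± 0.329) came next, and the ranges of these neighbours overlapped. CCNT1 had 9.87 ± 0.443 and CCNT2 4.15 ± 0.0909 CPM per kb, and HEXIM2 was far below with 0.561 ± 0.112. The level of HEXIM2 per kb may be too low, since 45.1% of its exon bases are shared with other genes and fragments overlapping several genes had not been counted. In MI-503, RN7SK (31.8 ± 5.58) and MEPCE (28.0 ± 1.14) overlapped at the top, and HEXIM1 (17.2 ± 0.664), which overlapped BRD3, stood above LARP7 (14.2 ± 0.558). In the combination, HEXIM1 reached 23.7 ± 0.350 CPM per kb (SD, n = 3), just below CDK9 at 24.8 ± 0.472, with no overlap between them. CCNT1, CCNT2 and HEXIM2 kept the last 3 places in every group. Since fragments that map to several places were left out by the authors, the level of RN7SK depends on how much of it is unlike its many copies in the genome. It also has no poly(A) tail, so its level depends on how much RNA without a tail entered each library, and its place in this order is uncertain.

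**Figure D1:**
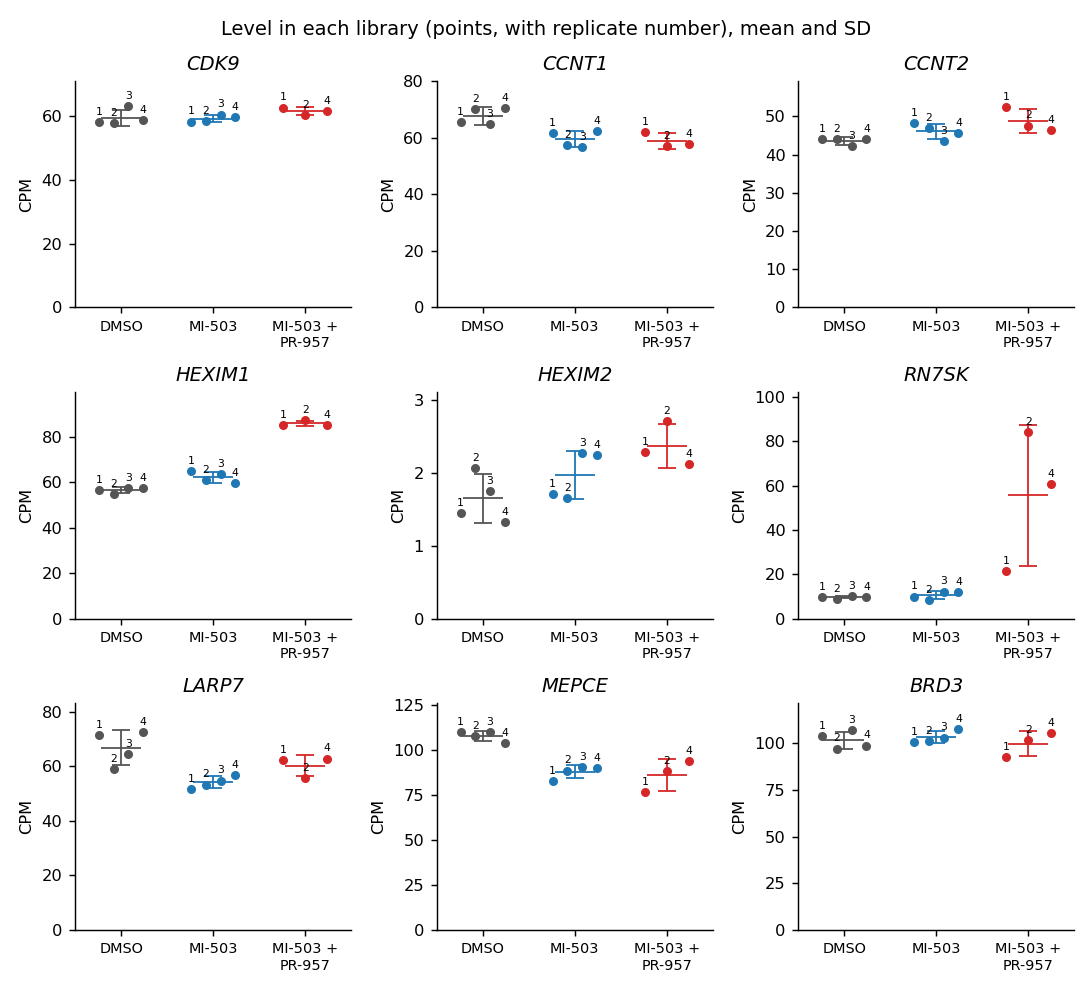
Level of each of the 9 genes in CPM (vertical axis, from 0) in the 4 DMSO, 4 MI-503 and 3 combination libraries, with the replicate number beside each point and the mean and SD of the group as lines. HEXIM1 stood at 85.0 to 87.3 CPM in the combination, above every other library, while RN7SK ranged from 21.6 to 84.4 CPM among the 3 combination libraries.

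HEXIM1 was the member with a clear rise in every comparison, and the subunits of 7SK that guard the RNA ends, LARP7 and MEPCE, were lower with MI-503. CDK9 and BRD3 were called in none of the 3 comparisons. With MI-503 against DMSO, 1 of the 8 tested genes was called higher (HEXIM1) and 3 were called lower (CCNT1, LARP7 and MEPCE) at an edgeR quasi-likelihood adjusted p under 0.05. Of all 14683 tested genes, 51.4% were called in that comparison, 22% higher and 29.3% lower, so a count of 4 of 8 is close to the background. With upper-quartile factors in place of TMM, 54.2% of all calls in that comparison were higher, against 42.9% with TMM. The median log2 fold change of the 8 genes was 0.01, and that of all tested genes was -0.03. In 4 of the 8 genes the MI-503 and DMSO libraries did not overlap, against 50.3% of all tested genes (21.2% higher, 29.1% lower).

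With the combination against DMSO, 3 of the 8 were called higher (HEXIM1, HEXIM2 and CCNT2) and 2 lower (CCNT1 and MEPCE). Here 64.5% of all tested genes were called, 31.7% higher and 32.8% lower. Libraries did not overlap in 5 of the 8 genes, against 60.5% of all tested genes (29.3% higher, 31.2% lower). With the combination against MI-503, which gives the addition of PR-957 to MI-503, 1 of the 8 was called higher (HEXIM1) and 0 lower, against 23.6% higher and 23.8% lower of all tested genes. HEXIM1 was also the gene in which these groups did not overlap, 1 of 8 against 47.6% of all tested genes (23.8% higher, 23.7% lower). The comparisons share their DMSO, MI-503 or combination libraries and are not independent of each other.

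**Figure D2:**
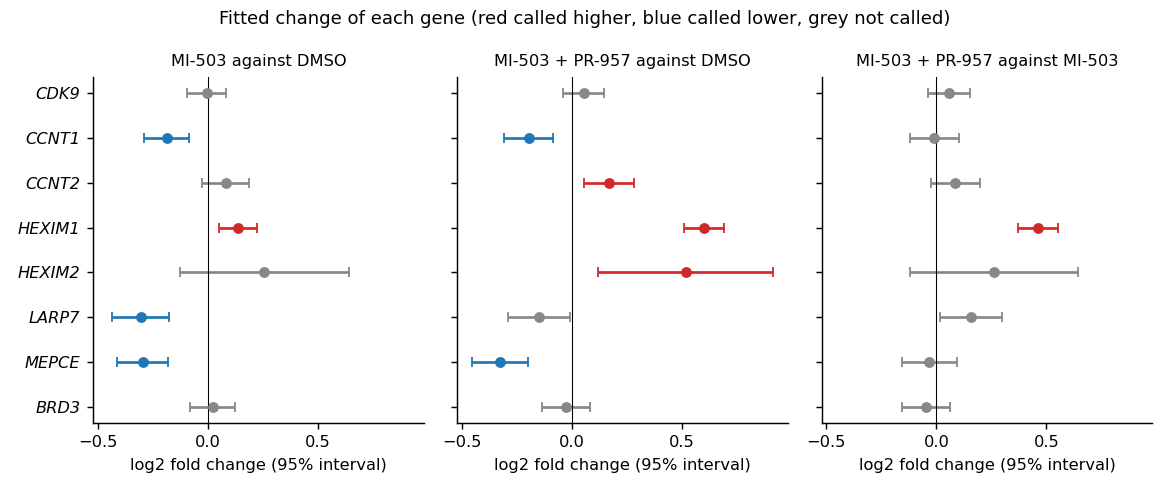
Fitted log2 fold change (horizontal axis) of the 8 tested genes in the 3 comparisons, with 95% intervals. Red marks genes called higher, blue genes called lower and grey genes not called by edgeR. HEXIM1 was called higher in each panel, at 0.14, 0.60 and 0.46, and the intervals of CDK9 and BRD3 crossed 0 in each.

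To assess the kinase itself, CDK9 (chr9:127786034-127790792, plus strand) was measured at 58.1, 57.9, 63.1 and 58.7 CPM in DMSO replicates 1 to 4. It was at 58.3, 58.4, 60.5 and 59.7 CPM in MI-503 replicates 1 to 4, and at 62.6, 60.3 and 61.7 CPM in combination replicates 1, 2 and 4. The groups overlapped, and DMSO replicate 3 was the highest of all libraries. The log2 fold change was -0.01 with MI-503 against DMSO (95% interval -0.09 to 0.08, edgeR adjusted p = 0.931). It was 0.05 with the combination against DMSO (-0.04 to 0.15, edgeR adjusted p = 0.322) and 0.06 with the combination against MI-503 (-0.04 to 0.15, edgeR adjusted p = 0.312). With upper-quartile factors the combination against DMSO gave 0.12 for CDK9 and passed the threshold (edgeR adjusted p = 0.0241).

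CCNT1, which encodes the main cyclin partner of CDK9 (chr12:48688458-48716707, minus strand), had 65.4, 70.1, 64.8 and 70.6 CPM in DMSO. In MI-503 it had 61.7, 57.3, 56.7 and 62.3 CPM, and in the combination 62.0 CPM in replicate 1, 57.0 in replicate 2 and 57.6 in replicate 4. Every treated library lay below every DMSO library. The log2 fold change was -0.19 (SE 0.0489, edgeR adjusted p = 0.00397) with MI-503 and -0.20 (SE 0.0528, edgeR adjusted p = 0.00343) with the combination, both against DMSO. With upper-quartile factors both were smaller (-0.13 each) and just missed the threshold (edgeR adjusted p-values of 0.0523 and 0.0509). The combination differed from MI-503 by -0.01 (95% interval -0.12 to 0.10, edgeR adjusted p = 0.893).

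CCNT2, the other cyclin (chr2:134918810-134959342, plus strand), moved the other way and by less. It was at 44.0, 44.1, 42.2 and 44.1 CPM in DMSO, at 48.3, 46.9, 43.6 and 45.7 CPM in MI-503, and at 52.4, 47.6 and 46.4 CPM in the combination. All 3 combination libraries were above all 4 DMSO libraries, whereas MI-503 replicate 3 fell within the DMSO range. The log2 fold change of the combination against DMSO was 0.17 (SE 0.0536, edgeR adjusted p = 0.0119). Against DMSO, MI-503 gave 0.08 (95% interval -0.03 to 0.19, edgeR adjusted p = 0.194) and passed the threshold under 4 of the 19 alternatives, and the combination differed from MI-503 by 0.09 (-0.03 to 0.20, edgeR adjusted p = 0.200). The ratio of CCNT1 to CCNT2 per kb averaged 2.38 ± 0.0780 over the 4 DMSO libraries, 1.98 ± 0.0915 over the 4 MI-503 libraries and 1.85 ± 0.0458 over the 3 combination libraries (± SD). DMSO libraries had ratios of 2.28 to 2.45, above all treated libraries, which reached 2.09 at most.

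HEXIM1, the main protein inhibitor of P-TEFb (chr17:45148475-45152099, plus strand, 1 exon), was measured at 56.6, 54.9, 57.5 and 57.3 CPM in DMSO replicates 1 to 4. MI-503 replicates 1 to 4 had 64.8, 61.0, 63.7 and 59.5 CPM. Combination replicates 1, 2 and 4 had 85.0, 87.3 and 85.2 CPM. The 3 groups did not overlap at any step, and the 3 combination libraries were nearly alike, although they were the ones in which RN7SK differed most. With MI-503, HEXIM1 rose by 0.14 on the log2 scale (SE 0.0411, edgeR adjusted p = 0.0102). With the combination it rose by 0.60 against DMSO (SE 0.0433, edgeR adjusted p = 2.61e-09), a 1.52-fold level, and by 0.46 against MI-503 (SE 0.0430, edgeR adjusted p = 2.23e-07), a 1.38-fold level. It was called higher in the 3 comparisons under each of the 19 alternatives tried per comparison. Without combination replicate 1, the changes were 0.63 against DMSO and 0.45 against MI-503.

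HEXIM2, the lower expressed relative of HEXIM1 (chr17:45159948-45170040, plus strand), rested on 28 to 97 fragments per library. It was at 1.45, 2.07, 1.75 and 1.33 CPM in DMSO, at 1.71, 1.66, 2.27 and 2.25 CPM in MI-503, and at 2.29, 2.71 and 2.12 CPM in the combination. The combination libraries lay above the DMSO libraries, but combination replicate 4 was only a little above DMSO replicate 2. The log2 fold change of the combination against DMSO was 0.52 (SE 0.188, edgeR adjusted p = 0.0235), and it missed the threshold without DMSO replicate 1, DMSO replicate 4 or combination replicate 2 (edgeR adjusted p = 0.0708, 0.0703 and 0.0855). MI-503 against DMSO gave 0.26 (95% interval -0.13 to 0.64, edgeR adjusted p = 0.256), and the combination against MI-503 gave 0.26 (-0.12 to 0.64, edgeR adjusted p = 0.254). In addition, 45.1% of the exon bases of HEXIM2 are shared with LOC105371795 or LOC112268203, and fragments overlapping several genes had not been counted.

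To compare the inhibitor with its target transcript within each library, HEXIM1 was divided by CDK9, both per kb. The ratio averaged 0.653 ± 0.0204 over the DMSO libraries, 0.720 ± 0.0320 over the MI-503 libraries and 0.956 ± 0.0326 over the combination libraries (± SD, n = 4, 4 and 3). The DMSO ratios ran from 0.625 to 0.669, those in MI-503 from 0.683 to 0.761 and those in the combination from 0.929 to 0.992, with no overlap. HEXIM1 per LARP7 was 0.898 ± 0.0745, 1.22 ± 0.0862 and 1.51 ± 0.124 in the same order of groups, and HEXIM1 per MEPCE was 0.455 ± 0.0166, 0.615 ± 0.0458 and 0.868 ± 0.0888. HEXIM1 per HEXIM2 was 28.7 ± 5.91, 26.2 ± 4.78 and 29.6 ± 3.28, with overlapping ranges. This ratio may be too high in every group, because of the exon bases that HEXIM2 shares with other genes. These ratios describe transcripts and say nothing of the amounts of protein.

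**Figure D3:**
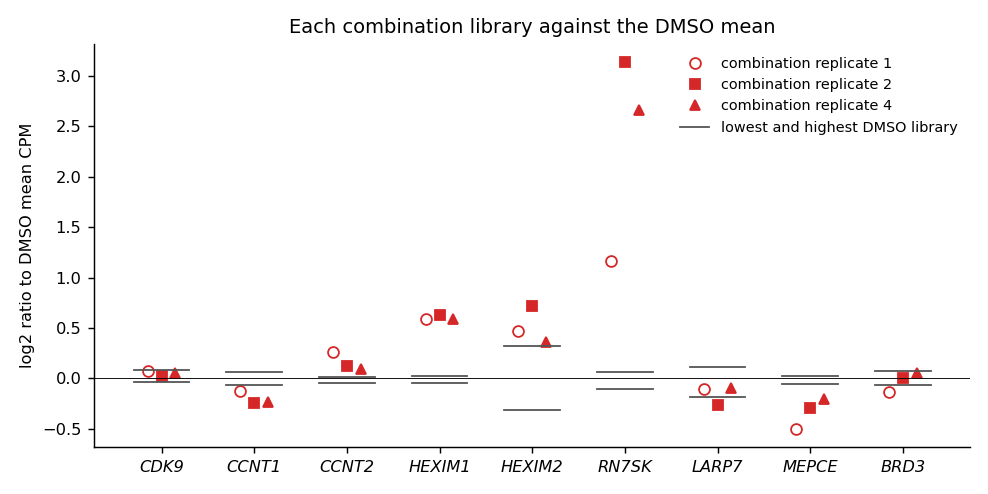
log2 ratio of each combination library (replicate 1 circles, replicate 2 squares, replicate 4 triangles) to the mean CPM of the 4 DMSO libraries, with bars at the lowest and highest DMSO library. The 3 libraries coincided for HEXIM1 (0.59 to 0.63) and were far apart for RN7SK, at 1.17, 3.14 and 2.66.

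RN7SK, the 7SK RNA, was at 9.76, 8.96, 10.1 and 9.63 CPM in DMSO replicates 1 to 4 and at 9.95, 8.23, 12.2 and 11.9 CPM in MI-503 replicates 1 to 4. The MI-503 mean was 1.10 times the DMSO mean, and the groups overlapped. Each combination library is given by itself. Combination replicate 1 had 915 fragments, or 21.6 CPM (95% exact Poisson interval 20.2 to 23.1, which covers counting error only), 2.25 times the DMSO mean. Combination replicate 2 had 1682 fragments, or 84.4 CPM (80.4 to 88.5), 8.79 times the DMSO mean. Combination replicate 4 had 1636 fragments, or 60.9 CPM (58.0 to 63.9), 6.34 times the DMSO mean.

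All 3 combination libraries were above the 8 other libraries, but replicate 2 had 3.91 times and replicate 4 had 2.82 times the level of replicate 1, and replicate 2 had 1.39 times that of replicate 4. Total counts of combination replicates 1, 2 and 4 were 41.2, 18.9 and 26.0 M, in the reverse order of RN7SK. The part of library depth in the level of RN7SK was not tested. The mean of the combination was 5.79 times the DMSO mean, or 7.56 times without replicate 1. Genome positions resembling RN7SK numbered 207 over at least 150 bases, the read length, on assembled chromosomes. Of these, 54 were at least 90% identical, 8 were at least 95% identical and 0 were fully identical. The highest identity was 98.3%, over 241 bases. How many RN7SK fragments were lost to these copies cannot be read from the counts. More RN7SK in the cells and more RNA without a poly(A) tail in the library cannot be told apart here, for the differences among the combination libraries as well as for those from DMSO.

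RN7SK was not the only RNA for which combination replicate 1 differed from replicates 2 and 4. Among the 10041 genes that averaged 5 CPM or more, 17 had levels in replicates 2 and 4 that were each at least 2 times that of combination replicate 1, and 4 had the opposite pattern. By the ratio of the mean of replicates 2 and 4 to replicate 1, RN7SK ranked 7 with 3.36. Above it were HMOX1 (8.56), which encodes heme oxygenase, then LGALS3 (4.66), IFI30, LYZ, LOC105377845 and S100A9, and below it HK3, the ribosomal RNA precursor RNA45SN2 (2.74) and, as the last of the 17, the nuclear long noncoding RNA NEAT1 (2.05). Between RNA45SN2 and NEAT1 came THBS4 (2.36), SLC7A11, H2BC12, RNASE3, MCEMP1, CD68 and TYMP (2.18). These 17 genes were listed after their values had been seen, and LYZ and S100A9, for example, are markers of mature myeloid cells. The part of any of them in the level of RN7SK was not tested.

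To see whether other short structured RNAs went along, 33 such genes with an entry in the count table were examined. Most of these RNAs, like 7SK, lack a poly(A) tail, and per the labels the libraries were made from poly(A) RNA. Of the 33, 5 passed the filter, and 12 were listed at 0 in every library, among them the signal recognition particle RNAs RN7SL1 and RN7SL2 and the RNase P RNA RPPH1. These zeros say nothing of the amount of RNA, because 10 of the 12 share 80.6% or more of their exon bases with another gene and the other 2 lie on 2 contigs, and such fragments were left out of the counts. RMRP, the RNA of RNase MRP, had 3.23 to 4.12 CPM in DMSO and 3.08 to 3.81 CPM in MI-503. In the combination it had 5.15, 6.37 and 5.54 CPM in replicates 1, 2 and 4, above all other libraries. SNORD3A, the U3 small nucleolar RNA, had 1.84 to 2.75 CPM in DMSO and 1.45 to 1.71 CPM in MI-503. In the combination it had 1.96 CPM in replicate 1 but 18.3 CPM in replicate 2 and 12.3 CPM in replicate 4. SNORD3A thus followed the same order of combination libraries as RN7SK, with replicate 1 inside the DMSO range.

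Not all of these RNAs were higher in the combination. BCYRN1, a brain cytoplasmic RNA, was lower, with 4.05 ± 0.617 CPM on average in DMSO, 2.10 ± 0.587 CPM in MI-503 and 0.944 ± 0.245 CPM in the combination (± SD, n = 4, 4 and 3). SNORA73B overlapped between groups, with means of 3.64 ± 0.826, 2.85 ± 0.828 and 2.75 ± 1.11 CPM. SCARNA2, named after its values were seen, had 2.10, 3.96 and 3.46 CPM in combination replicates 1, 2 and 4, above its DMSO mean of 1.23 ± 0.299 CPM. The 33 RNAs summed to 13.6 to 17.8 CPM in DMSO, to 11.2 to 13.4 CPM in MI-503 and to 13.4, 33.7 and 28.2 CPM in combination replicates 1, 2 and 4. Without SNORD3A the combination sums were 11.5, 15.4 and 15.9 CPM.

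**Figure D4:**
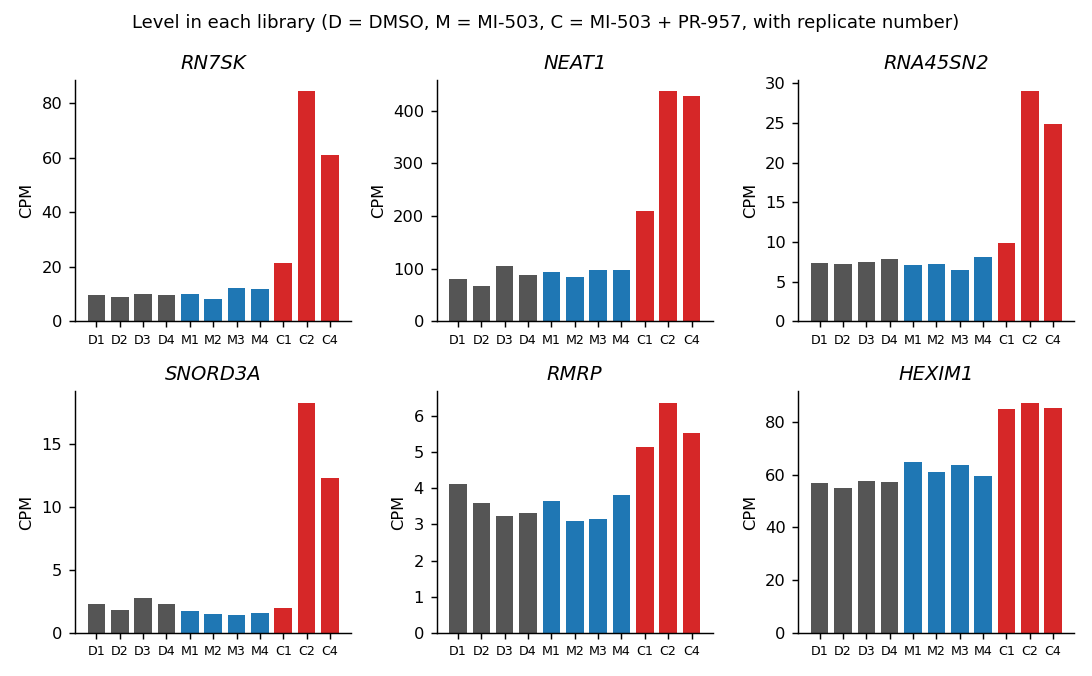
CPM (vertical axes, from 0) of RN7SK, NEAT1, RNA45SN2, SNORD3A, RMRP and HEXIM1 in each of the 11 libraries. RN7SK, NEAT1, RNA45SN2 and SNORD3A were lower in combination replicate 1 than in replicates 2 and 4, whereas HEXIM1 was at 85.0, 87.3 and 85.2 CPM.

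Of the 2 proteins that stay on the 7SK RNA, LARP7 (chr4:112636964-112657592, plus strand) had 71.6, 59.1, 64.5 and 72.5 CPM in DMSO. In MI-503 it had 51.8, 53.4, 54.8 and 56.8 CPM, and in the combination 62.2, 55.7 and 62.9 CPM in replicates 1, 2 and 4. All MI-503 libraries were below all DMSO libraries, while the combination overlapped both groups. With MI-503 LARP7 fell by 0.31 on the log2 scale (SE 0.0620, edgeR adjusted p = 5.38e-04). The combination gave -0.15 against DMSO (95% interval -0.29 to -0.01, edgeR adjusted p = 0.0588) and 0.16 against MI-503 (0.02 to 0.30, edgeR adjusted p = 0.0626). Neither was called, and both lay near the threshold: without DMSO replicate 2 they were -0.20 and 0.16 with edgeR adjusted p-values of 0.00800 and 0.0325, and without combination replicate 4 the first was -0.18 (edgeR adjusted p = 0.0353). With the replicate number as a block, the first was -0.16 and passed the threshold (edgeR adjusted p = 0.0255).

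MEPCE, the capping enzyme of 7SK (chr7:100428790-100434118, plus strand), had 110.1, 107.8, 109.8 and 103.9 CPM in DMSO. It had 82.7, 88.5, 90.4 and 90.1 CPM in MI-503 and 76.4, 88.4 and 93.8 CPM in combination replicates 1, 2 and 4. No treated library reached the DMSO range, and combination replicate 1 was the lowest of all. The fall was 0.30 on the log2 scale with MI-503 (log2 fold change -0.30, SE 0.0548, edgeR adjusted p = 2.42e-04) and 0.33 with the combination (log2 fold change -0.33, SE 0.0594, edgeR adjusted p = 1.18e-04), both against DMSO, and without combination replicate 1 the second was -0.23 (edgeR adjusted p = 2.99e-04). The combination differed from MI-503 by -0.03 (95% interval -0.16 to 0.09, edgeR adjusted p = 0.688). In the exons, 15.4% of the bases of MEPCE are shared with ZCWPW1, and for LARP7 8.4% are shared with MIR302CHG or ZGRF1.

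BRD3, the BET protein gene of the set (chr9:134030305-134068533, minus strand), was called in none of the comparisons. It had 103.7, 97.2, 106.9 and 98.8 CPM in DMSO, 100.8, 101.2, 103.1 and 107.7 CPM in MI-503, and 92.4, 101.8 and 105.5 CPM in combination replicates 1, 2 and 4. The groups overlapped, and combination replicate 1 was the lowest library. The log2 fold change was 0.02 with MI-503 (95% interval -0.08 to 0.12, edgeR adjusted p = 0.738) and -0.03 with the combination against DMSO (-0.14 to 0.08, edgeR adjusted p = 0.663). It was -0.05 with the combination against MI-503 (-0.16 to 0.06, edgeR adjusted p = 0.462). Of its exon bases, 20.1% are shared with BRD3OS, an antisense gene that counting without strand cannot separate.

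Among BET genes outside the set, BRD2, whose gene lies on several alternative contigs of hg38 so that its counts are incomplete, averaged 21.9 ± 1.17 CPM in DMSO, 18.4 ± 1.19 in MI-503 and 21.9 ± 1.30 in the combination (± SD, n = 4, 4 and 3, as for the genes that follow). It fell with MI-503 (log2 fold change -0.26, edgeR adjusted p = 0.00342) and rose with the combination against MI-503 (0.26, edgeR adjusted p = 0.00541), while the combination against DMSO gave 0.00 (edgeR adjusted p = 0.972). BRDT, the testis member, had 1 fragment in all libraries together and was not tested. Whether BRD3 differed from BRD2 in its change was not tested.

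To set the 9 genes in the wider pathway, 52 other genes in 6 lists were described, of which 51 were tested. With MI-503 against DMSO 4 of the 51 were called higher and 28 lower, with a median log2 fold change of -0.20. Of all tested genes, 22% were called higher and 29.3% lower, with a median of -0.03. For the combination against DMSO 10 were called higher and 28 lower, with a median of -0.18, against 31.7% higher and 32.8% lower of all tested genes and a median of 0.01. For the combination against MI-503 12 were called higher and 19 lower, with a median of -0.07, against 23.6% higher and 23.8% lower of all tested genes and a median of 0.00. The counts of each list below are to be read against these shares of all tested genes. With upper-quartile factors the first of these was 5 higher and 27 lower and the second 12 higher and 24 lower.

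Most of the 12 genes for proteins that bind 7SK or free P-TEFb from it were called lower. With MI-503 these were 9 of the 12, with 0 higher (median -0.29), where 29.3% of all tested genes were lower. In the combination 10 were lower and 0 higher against DMSO (median -0.53), where 32.8% of all tested genes were lower. Against MI-503 the combination had 9 lower and 1 higher (median -0.24), where 23.8% of all tested genes were lower. DDX21, an RNA helicase that releases P-TEFb from 7SK, had the largest change of the 12 in both comparisons with DMSO, with means of 928 ± 55.9 CPM in DMSO, 588 ± 22.2 in MI-503 and 457 ± 12.1 in the combination. It fell by 0.66 with MI-503 (edgeR adjusted p = 8.05e-09) and by 1.02 with the combination (edgeR adjusted p = 4.24e-11), on the log2 scale against DMSO. SYNCRIP, an RNA-binding protein found on 7SK free of P-TEFb, had 704 ± 24.7, 532 ± 19.6 and 389 ± 23.8 CPM, and fell by 0.45 with the combination against MI-503 (edgeR adjusted p = 1.60e-06). The gene called higher in that comparison was JMJD6, named after its values were seen, which encodes a dioxygenase (0.38, edgeR adjusted p = 9.95e-05). JMJD6 was called lower with MI-503 against DMSO (-0.29, edgeR adjusted p = 4.97e-04). With the combination against DMSO it was not called (0.08, edgeR adjusted p = 0.241).

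In the super elongation complex, which carries P-TEFb to genes, the 11 genes went both ways. With MI-503 4 were called higher and 1 lower, which makes 45.5% called against 51.4% of all tested genes. In the combination 7 were higher and 3 lower against DMSO, 90.9% against 64.5%, and with the combination against MI-503 4 were higher and 2 lower, 54.5% against 47.4%. AFF1, a scaffold of the complex, had 261 ± 14.98 CPM in DMSO and 171 ± 5.32 in MI-503, and fell by 0.61 on the log2 scale (edgeR adjusted p = 1.32e-07). ELL2, an elongation factor of the complex named after its values were seen, was higher with MI-503 (1.11, edgeR adjusted p = 3.60e-06) and with the combination against DMSO (1.44, edgeR adjusted p = 9.31e-08). Counts of MLLT3 can include the fusion transcript of the rearranged KMT2A gene.

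Of the 6 pausing factors (NELF and DSIF subunits), 5 were called lower and 0 higher with MI-503, where 29.3% of all tested genes were lower. In the combination 4 were lower and 1 higher against DMSO (32.8% of all tested genes lower), and with the combination against MI-503 2 were lower and 1 higher (23.8% lower). Of 11 elongation factors, 8, 7 and 4 were lower and 0, 1 and 2 higher in the same 3 comparisons. SSRP1, a subunit of the histone chaperone FACT, had 425 ± 14.6, 318 ± 11.3 and 241 ± 7.07 CPM in DMSO, MI-503 and the combination. It fell by 0.82 on the log2 scale with the combination against DMSO (edgeR adjusted p = 9.86e-11) and by 0.40 against MI-503 (edgeR adjusted p = 1.80e-06). SUPT6H, a histone chaperone that travels with the polymerase, had 205 ± 6.90, 180 ± 8.56 and 253 ± 9.57 CPM and rose by 0.49 with the combination against MI-503 (edgeR adjusted p = 3.29e-07).

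Of 9 other transcription kinases and cyclins, 3 were lower and 0 higher with MI-503, which makes 33.3% called against 51.4% of all tested genes. With the combination against DMSO 4 were lower and 1 higher, 55.6% against 64.5%, and with the combination against MI-503 2 were lower and 2 higher, 44.4% against 47.4%. CDK13, which phosphorylates the polymerase later in transcription, had 168 ± 5.56 CPM in DMSO, 99.9 ± 0.510 in MI-503 and 86.6 ± 1.84 in the combination. It fell by 0.75 with MI-503 (edgeR adjusted p = 1.19e-10) and by 0.96 with the combination (edgeR adjusted p = 6.95e-12), on the log2 scale against DMSO. CDK9, by contrast, had fitted changes between -0.01 and 0.05 against DMSO. The difference between the 2 kinases was not tested.

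**Figure D5:**
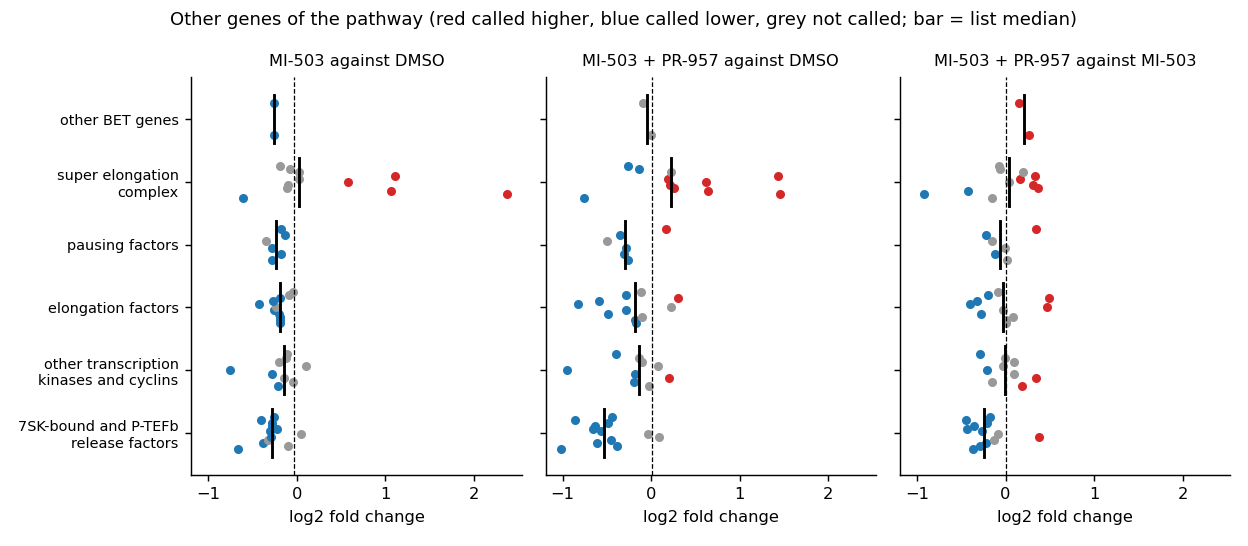
Fitted log2 fold change (horizontal axis) of the 51 tested genes of the 6 pathway lists in the 3 comparisons. Red points were called higher, blue points lower and grey points neither, black bars are the list medians and the dashed line is the median of all tested genes. Most of the genes that bind 7SK or free P-TEFb from it lie to the left, with medians of -0.29, -0.53 and -0.24.

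To find the transcripts whose pattern was most like that of HEXIM1 and RN7SK, Pearson's r of log2 CPM was taken over the 11 libraries among genes averaging 5 CPM or more, as a description, since the libraries share treatments. For HEXIM1 the 5 highest were SFXN5, ANKRD52, GABARAPL1, ZNF426 and FLYWCH1 (r = 0.99 for each). All 5 had even levels among the combination libraries: GABARAPL1 went from a mean of 5.46 CPM in DMSO and 8.05 in MI-503 to 46.7, 47.9 and 49.7 CPM, and FLYWCH1 from 47.1 and 57.2 to 138, 136 and 136 CPM. For RN7SK the 5 highest were TBC1D24 (r = 0.99), HMOX1 (0.98), NEAT1 (0.98), RNA45SN2 (0.98) and TMEM127 (0.97). All 5 were lower in combination replicate 1 than in replicates 2 and 4, although for TBC1D24 the step was small (49.7, 55.0 and 52.8 CPM). HMOX1 had 7.98, 89.3 and 47.4 CPM in combination replicates 1, 2 and 4 beside a DMSO mean of 0.398 CPM, NEAT1 had 210, 437 and 428 CPM beside 85.3 CPM, and RNA45SN2 had 9.82, 29.0 and 24.9 CPM beside 7.49 CPM. Between HEXIM1 and RN7SK r was 0.898, with both above DMSO in every combination library but only RN7SK uneven among them.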

How the data were processed

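RNA of 11 MOLM-13 libraries had been sequenced after a TruSeq preparation from poly(A) RNA. The deposited tables give, for each gene, an unnormalized count of fragments, which the authors made, per the file headers, with featureCounts 2.0.1 from exons of an hg38 RefSeq annotation, without regard to strand and without fragments that map to several places or overlap several genes. The submitters' processing notes also name Trimmomatic 0.39, STAR 2.7.10a and DESeq2. Deposited tables of the authors' own comparisons hold log2 fold changes and p-values and were not used. The joined count table and the single libraries differed in 0 cells.

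The software was edgeR 4.0.16 under R 4.3.3, with limma 3.58.1 and DESeq2 1.42.0 for alternatives, and Python 3.11.15. Genes were kept by filterByExpr (minimum count 10, minimum total 15), which left 14683. All libraries entered 1 fit with a mean per group and TMM factors of 0.956 to 1.06. The common dispersion was 0.00378 with 8 residual degrees of freedom. Contrasts were tested by edgeR's two-sided quasi-likelihood test. P-values were adjusted after Benjamini and Hochberg across the 14683 genes, and called means adjusted below 0.05. log2 CPM used a prior count of 0.5. Intervals are 95%. A count of 3, the limit that a count of 0 allows, was 0.0729 to 0.159 CPM, and such limits cover counting error only. The scripts were tested on simulated data.

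The members and lists were chosen with earlier results of these data known, and the pathway lists were written from general knowledge. Named genes were the 9 members, other BET genes, the 3 pathway genes with the smallest adjusted p in each comparison, RN7SL1, RN7SL2, RMRP, RPPH1 and the 3 other short RNAs with the highest mean, and the 5 genes most like HEXIM1 and RN7SK. Other names were chosen after the values were seen. Values of some listed genes are not reported here. Alternatives were other scaling factors, filters and tests, fits of only the compared groups, a replicate block and leaving out each library.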

Additional observations from a re-analysis of the deposited data

Results flagged for a closer look

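Among 18 groups of 4 libraries looked at (the 9 genes in DMSO and in MI-503), 2 held a library far from the other 3 by Dixon's ratio, which has a critical value of 0.829 for 4 samples. Chance alone flags about 1 in 20 groups. For CDK9, DMSO replicate 3 had 63.1 CPM while the other DMSO libraries had 57.9 to 58.7 CPM, a ratio of 0.848. For CCNT2, DMSO replicate 3 had 42.2 CPM while the others had 44.0 to 44.1 CPM, a ratio of 0.926. Both values are small steps beside narrow groups, and both came from the same library. Without it, the change of CDK9 with MI-503 against DMSO was 0.02 on the log2 scale (edgeR adjusted p = 0.675).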

How the results depend on the processing

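Each comparison was repeated under 19 alternatives. HEXIM1 kept its direction and its call in all of them, with log2 fold changes of 0.12 to 0.20 for MI-503 against DMSO, 0.59 to 0.67 for the combination against DMSO and 0.41 to 0.48 for the combination against MI-503. MEPCE kept its calls in both comparisons with DMSO, and LARP7 its call with MI-503. The number of genes of the set called higher with MI-503 went from 1 to 2 with upper-quartile factors and with only the 2 groups compared, and lay between 1 and 2 when single libraries were left out (2 without combination replicate 1 or 4). The added gene was CCNT2. CCNT1 lost its lower call in that comparison with upper-quartile factors. With the combination against DMSO, the number called lower went from 2 to 1 with upper-quartile factors (CCNT1). LARP7 was called lower there with the replicate block, without DMSO replicate 2 and without combination replicate 4. HEXIM2 lost its higher call without DMSO replicate 1, DMSO replicate 4 or combination replicate 2, and CDK9 was called higher with upper-quartile factors. With the combination against MI-503, the number called higher went from 1 to 2 with either other filter on low counts, with upper-quartile factors and with only the 2 groups compared, and lay between 1 and 2 when single libraries were left out (2 without DMSO replicate 2). The added gene was LARP7. The cause of these moves was not tested.

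The log2 ratio of RN7SK to the DMSO mean moved from 1.17 to 1.25 (upper-quartile factors) and 1.25 (no scaling) in combination replicate 1, from 3.14 to 3.26 (no scaling) in replicate 2 and from 2.66 to 2.76 (no scaling) in replicate 4.

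Some changes that were not called had the opposite sign in alternatives. CDK9 with MI-503 against DMSO was 0.0219 with RLE factors, 0.0567 with upper-quartile factors, 0.0145 with no filter, 0.0206 with the stricter filter, 0.0222 with DESeq2, 0.0430 with only the 2 groups compared and -0.0174 to 0.0399 when single libraries were left out. BRD3 with the combination against DMSO was 0.0408 with upper-quartile factors, 0.0106 with the stricter filter and -0.0709 to 0.0471 when single libraries were left out, above 0 without combination replicate 1. CCNT1 with the combination against MI-503 was 0.00204 with the stricter filter and -0.0770 to 0.0140 when single libraries were left out, above 0 without MI-503 replicate 1 or 4. MEPCE in that comparison ran from -0.138 to 0.0257, above 0 without combination replicate 1.

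Deviations from group means correlated at -0.102 to 0.144 between libraries of the same number and at -0.132 to 0.116 between others. These ranges overlapped, but with 3 to 4 libraries a group they cannot exclude a pairing by replicate number. With the replicate block, calls over all genes went from 7542 to 7630, from 9472 to 9312 and from 6956 to 6813 in the 3 comparisons, and of the 8 genes only LARP7 with the combination against DMSO changed its call. Precision is limited by 3 to 4 libraries a group, and for HEXIM2 by 28 to 97 fragments per library.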
